A study of Mus musculus with 32 samples.

Results

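The 9 genes *Pvalb*, *Sst*, *Npy*, *Nos1*, *Calb2*, *Vip*, *Cck*, *Lhx6* and *Kit* mark the classes of GABAergic interneuron and were followed in striatal RNA of B6.D2 congenic mice and B6 littermates. The genes were chosen by name, and all 9 were found among the 23420 gene rows of the count tables. All 9 also passed the filter on low counts. The B6.D2 mice belong to Line 4a, which is heterozygous for a segment of chromosome 11 from the D2 strain (DBA/2J) on the background of the B6 strain (C57BL/6J). Control mice were C57BL/6J littermates without that segment. Each genotype had 8 mice of both sexes that had received no drug. Each mouse gave 1 library made from pooled punches of the left and right striatum. The labels give an age of about 50 days and punches of 3 mm for both genotypes, and the methods of the study give slightly different figures. The comparison asks whether the D2 segment altered gene expression in the striatum, here for the interneuron markers, none of which lies on chromosome 11.

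Most striatal neurons are GABAergic projection neurons, and the interneurons are a small minority among them. Interneurons that make parvalbumin fire fast and inhibit projection neurons near the cell body. A further class makes somatostatin, neuropeptide Y and neuronal nitric oxide synthase together, and smaller classes make calretinin, vasoactive intestinal peptide or cholecystokinin. *Lhx6* is a transcription factor of interneurons that arise in the medial ganglionic eminence. *Cck* is also strongly made by glutamatergic neurons of the cortex, and *Sst*, *Npy*, *Vip* and *Pvalb* are made by interneurons there. In RNA from whole punches, fewer cells of a type and less RNA per cell cannot be told apart.

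Promoter sequence from RefSeq, on GRCm38.p6, was found for 8 of the 9 genes. *Calb2* was the gene not matched. The 250 bases before an annotated transcript start of *Sst*, *Vip* and *Cck* are shown. These neuropeptide genes hold the core of the cyclic AMP response element, the sequence bound by CREB. The window of *Npy*, also a neuropeptide gene, did not hold that core. Capitals mark TGACG on either strand, and in *Sst* the 2 copies overlap to form the full palindrome TGACGTCA. The sequences read 5′ to 3′ on the strand of the gene. For *Sst* and *Vip* a longer model is annotated that begins farther upstream.
*Sst* promoter, chr16:23890845-23891094, minus strand: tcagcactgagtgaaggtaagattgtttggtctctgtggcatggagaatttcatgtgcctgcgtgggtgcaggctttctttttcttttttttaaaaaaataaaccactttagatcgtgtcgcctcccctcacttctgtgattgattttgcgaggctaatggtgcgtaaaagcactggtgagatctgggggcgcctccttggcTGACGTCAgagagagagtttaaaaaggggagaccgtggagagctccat
*Vip* promoter, chr10:5638968-5639217, plus strand: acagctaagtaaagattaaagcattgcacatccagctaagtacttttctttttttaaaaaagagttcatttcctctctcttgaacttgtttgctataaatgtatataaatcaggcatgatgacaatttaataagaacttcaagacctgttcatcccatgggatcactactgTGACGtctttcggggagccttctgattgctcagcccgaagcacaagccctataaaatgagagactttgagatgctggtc
*Cck* promoter, chr9:121495695-121495944, minus strand: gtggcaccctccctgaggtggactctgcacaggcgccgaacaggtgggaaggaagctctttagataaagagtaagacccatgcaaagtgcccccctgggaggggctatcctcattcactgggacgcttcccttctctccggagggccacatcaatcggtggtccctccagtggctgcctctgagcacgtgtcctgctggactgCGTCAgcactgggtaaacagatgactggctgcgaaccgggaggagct
The core lay 48 bases before the start in *Sst*, 79 in *Vip* and 47 in *Cck*. TGACG or its reverse complement CGTCA was present in 17.8% of 32851 promoter windows of this length. Of the 8 interneuron genes with a window, 4 held it, the other one being *Nos1*. This is a count of genes and 17.8% a share of windows, and *Lhx6*, *Kit* and *Pvalb* had more than 1 window, so they are not directly comparable. The full TGACGTCA was present in 1.55% of windows and, of these genes, in *Sst* alone. A match of letters is a description of the sequence, and binding was not measured.

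Reads counted on genes ranged from 19032826 to 33748353 per mouse. Across libraries, the lowest count of any of the 9 genes was 60. One library stood apart. In B6.D2 mouse 1, 27.3% of reads aligned more than once and 10.2% aligned outside genes, against at most 21.4% and at least 11.3% in the other 15 libraries. Its departure from the other B6.D2 mice followed the length of the transcript. The median gene with under 1 kb of annotated exon was higher by 0.65 on the log2 scale, and the median gene with over 8 kb was lower by 0.46. In every other library these medians lay within 0.10 of 0. B6 mouse 8 differed less, with 11.3% of reads outside genes and 68.3% on genes. Results are therefore given with and without B6.D2 mouse 1.

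In B6.D2 mouse 1 the 5 shortest markers were raised most and the 2 longest were lowered. *Pvalb*, *Cck*, *Sst*, *Npy* and *Vip*, all with less than 1.6 kb of exon, were higher than the median of the other 7 B6.D2 mice by 1.03, 0.87, 0.77, 0.76 and 0.69 on the log2 scale. *Calb2*, with 1.74 kb, was higher by 0.30 and *Lhx6*, with 4.74 kb, by 0.02. *Kit*, with 5.83 kb, differed by -0.39. *Nos1*, the longest with 10.9 kb, differed by -3.83 and ranked 14th from the lowest of 15589 genes. Relative to the median gene of its length class, *Nos1* still differed by -3.37 and *Pvalb* by 0.59, whereas *Sst* and *Npy* were within 0.12. On the same measure *Vip*, *Cck* and *Lhx6* were at 0.24, 0.22 and 0.20, and *Calb2* and *Kit* at -0.14 and -0.21. *Nos1* had 32 and 28 reads on the 2 lanes of that library, so both runs gave the same low value, and the other 7 B6.D2 mice had 703 to 815 reads in all.

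**Figure D1:**
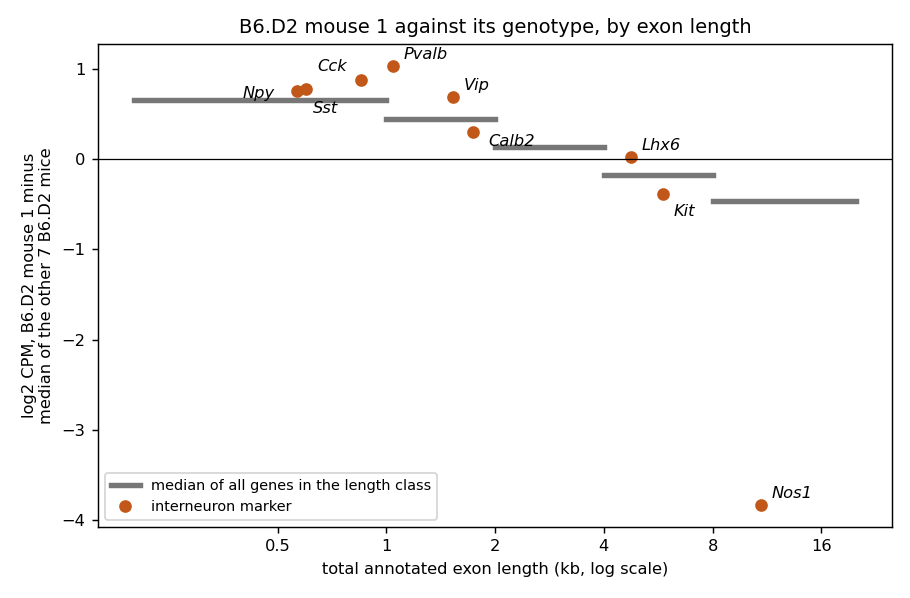
Deviation of B6.D2 mouse 1 from the median of the other 7 B6.D2 mice (log2 CPM) against total annotated exon length (kb, log scale). Points are the 9 interneuron markers and grey bars are medians of all genes in 5 length classes, which run from 0.65 under 1 kb to -0.46 over 8 kb. *Nos1* lies far below its class at -3.83.

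Per kilobase of exon, *Sst*, *Npy* and *Cck* were the most abundant of the 9, and *Vip*, the other neuropeptide gene, stood below *Pvalb* and *Kit*. CPM is the count of a gene relative to the library total, scaled by TMM, edgeR's correction for the makeup of a library. In B6 mice *Sst* reached 277 ± 27.5 CPM per kb (SD, n = 8 here and below), *Npy* 110 ± 11.6, *Cck* 80.3 ± 17.1 and *Pvalb* 62.4 ± 21.2. The remaining genes were lower, with *Kit* at 8.09 ± 0.567, *Vip* 5.62 ± 1.29, *Lhx6* 5.50 ± 0.496, *Calb2* 4.32 ± 3.74 and *Nos1* 2.43 ± 0.217. Of neighbours in this order, *Sst* and *Npy* did not overlap across mice and neither did *Pvalb* and *Kit*, while the other 6 pairs overlapped. Spread between mice differed among the markers as well. The biological coefficient of variation was 8.38% for *Lhx6* and 9.22% for *Kit*, below the 11.1% of the median gene, but 45.1% for *Calb2*, 42.1% for *Nos1* and 35.8% for *Pvalb*. The value of *Nos1* rests on B6.D2 mouse 1, since its CPM had a coefficient of variation of 8.95% in B6 mice and 5.58% in the other 7 B6.D2 mice, and that of *Calb2* includes 23.5 CPM in B6 mouse 1 against at most 8.0 in any other mouse.

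None of the 9 markers differed between genotypes at an FDR (the Benjamini-Hochberg false discovery rate over all genes tested) of 5% in edgeR's quasi-likelihood test, at which 0.00641% of the genes tested were called. That was a single gene, *Tnip1*, named after its values were seen. At an FDR of 20%, 0.0192% of genes (3) and none of the markers were called. That number of genes was 264 by DESeq2, 186 by the likelihood ratio test, 114 without B6.D2 mouse 2, 90 without B6 mouse 7, 84 without B6 mouse 4, 8 without B6.D2 mouse 1, 5 without B6 mouse 8 and 1 to 4 without each of the others. In the other alternatives it was 0 to 14. DESeq2 and edgeR's likelihood ratio test also called no marker. At an unadjusted p under 0.05, 2 of the 9 markers passed, *Cck* and *Vip*, both lower in B6.D2 mice. At that threshold 10% of all genes passed, 5.14% lower and 4.86% higher, so about 1 gene in 9 would match the background. The count of 2 depended on single mice, although neither log2 fold change turned sign. Over single mice left out, it ranged from -0.58 to -0.35 for *Cck* and from -0.54 to -0.34 for *Vip*. The count went to 0 without B6 mouse 2, 3 or 5 or without B6.D2 mouse 3, 5, 7 or 8, and to 1 without B6 mouse 1, 6 or 8 or B6.D2 mouse 4 or 6. Without B6.D2 mouse 1 it rose to 4, with *Sst* and *Npy* added, all lower, when 13.4% of genes passed, 7.54% lower in B6.D2 mice and 5.82% higher. None of the markers then passed an FDR of 5% or 20%, which 0.0256% and 0.0512% of genes did. The median log2 fold change of the 9 markers was -0.09 and that of all genes 0.01. Without B6.D2 mouse 1 these were -0.18 and -0.00091.

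**Figure D2:**
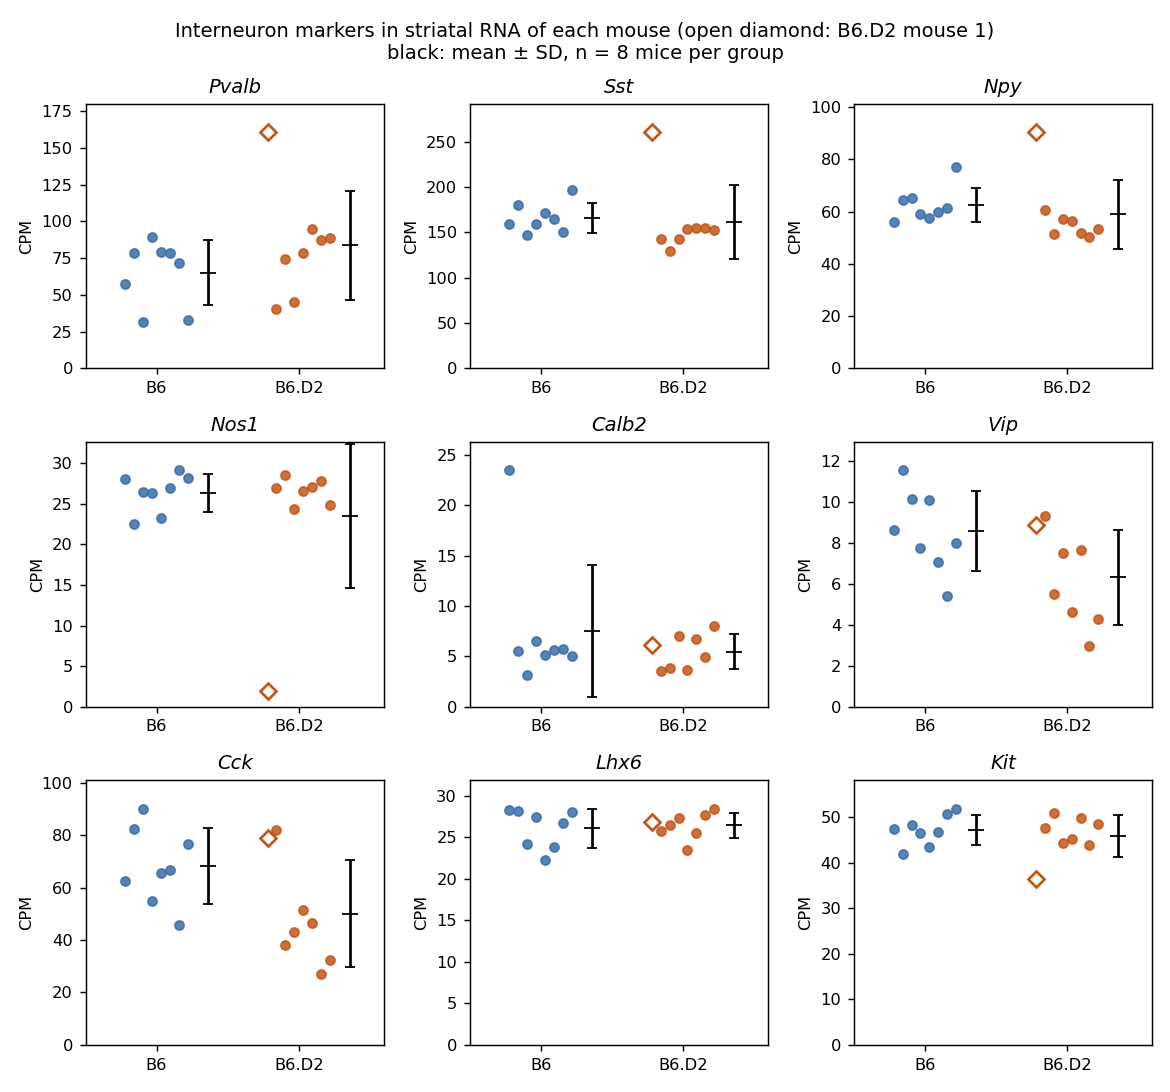
TMM-scaled CPM of the 9 markers in each mouse, with B6 in blue and B6.D2 in orange; black bars are mean ± SD over 8 mice and the open diamond is B6.D2 mouse 1. That mouse is highest for *Pvalb* (160.7), *Sst* (260.8) and *Npy* (90.4) and lowest for *Nos1* (1.88), and the genotypes overlap for every marker.

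*Cck*, the gene of the cholecystokinin peptide, lies at chr9:121489824-121495694. The 8 B6 mice had 62.7, 82.4, 90.1, 55.0, 65.6, 66.6, 45.8 and 76.5 CPM. The 8 B6.D2 mice had 78.9, 82.1, 38.3, 43.1, 51.5, 46.6, 27.2 and 32.5. Of the B6.D2 mice, 4 were below every B6 mouse, and the 2 highest lay among the upper B6 values. *Cck* averaged 68.1 ± 14.5 CPM in B6 and 50.0 ± 20.3 in B6.D2 mice, a log2 fold change of -0.45 ± 0.20 (SE, 95% interval -0.87 to -0.02, edgeR p = 0.0412, FDR = 0.477). The exact two-sided permutation test over the 16 mice gave p = 0.0444. Leaving out B6.D2 mouse 1 gave -0.57 ± 0.19 (edgeR p = 0.0064, FDR = 0.256). On lanes 5 and 6 it was -0.26, or -0.41 without that mouse, and on lanes 7 and 8 it was -0.70.

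*Vip*, which encodes vasoactive intestinal peptide, lies at chr10:5639193-5647617 and was measured at 8.6, 11.6, 10.2, 7.7, 10.1, 7.1, 5.4 and 8.0 CPM in the B6 mice. In B6.D2 mice it was measured at 8.9, 9.3, 5.5, 7.5, 4.6, 7.7, 3.0 and 4.3 CPM. Of the B6.D2 mice, 6 were below the B6 median and 3 were below every B6 mouse. Its log2 fold change was -0.44 ± 0.20 (SE, 95% interval -0.87 to -0.01, edgeR p = 0.0441, FDR = 0.487), and the exact permutation test gave p = 0.0552. It was -0.54 ± 0.20 (edgeR p = 0.0146, FDR = 0.292) in the 15 mice without B6.D2 mouse 1. Within lanes 5 and 6 the value was -0.28, or -0.35 without that mouse, and within lanes 7 and 8 it was -0.66.

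Markers of cortical glutamatergic neurons moved with *Cck* and *Vip*. All 11 genes of that list were lower in B6.D2 mice and 9 passed an unadjusted p under 0.05, none at an FDR of 20%. Of all genes tested, 5.14% passed that p and were lower. The median log2 fold change of the 11 genes was -0.56. The paper had already named *Slc17a7*, *Tbr1* and *Neurod6* in a network of mostly downregulated genes from these mice. The count of 9 is therefore a description and not independent of earlier results. *Slc17a7*, the vesicular glutamate transporter of cortical neurons, averaged 415 CPM in B6 and 268 in B6.D2 mice. *Neurod6* and *Sv2b* had the smallest p-values of the list, with log2 fold changes of -0.56 and -0.43. The summed level of the list was 658 to 1042 CPM in B6 and 467 to 894 CPM in B6.D2 mice. The scarcest of the 11 genes, *Neurod1*, averaged 1.73 and 0.994 CPM. Across the 15 mice without B6.D2 mouse 1, with genotype means removed, the mean log2 level of the list correlated with *Cck* at r = 0.94 and rho = 0.90 and with *Vip* at r = 0.87 and rho = 0.83. The permutation p-values adjusted over 90 relations of the 9 markers with 10 cell type lists were 9e-04 and 0.0036 for *Cck*, and 0.0013 and 0.0111 for *Vip*. Leaving out the 2 mice farthest from the median of the list gave r = 0.91 for *Cck* and 0.80 for *Vip*. With all 16 mice r was 0.85 and 0.84. With a score of these cortical markers as a covariate and B6.D2 mouse 1 left out, the log2 fold change was 0.01 ± 0.09 for *Cck* and 0.04 ± 0.16 for *Vip*. Over all 16 mice that score ran from -0.40 to 1.20 in B6 and from -1.38 to 0.89 in B6.D2 mice. Because the score differed with genotype, this fit cannot tell a genotype effect apart from that of the cortical markers.

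**Figure D3:**
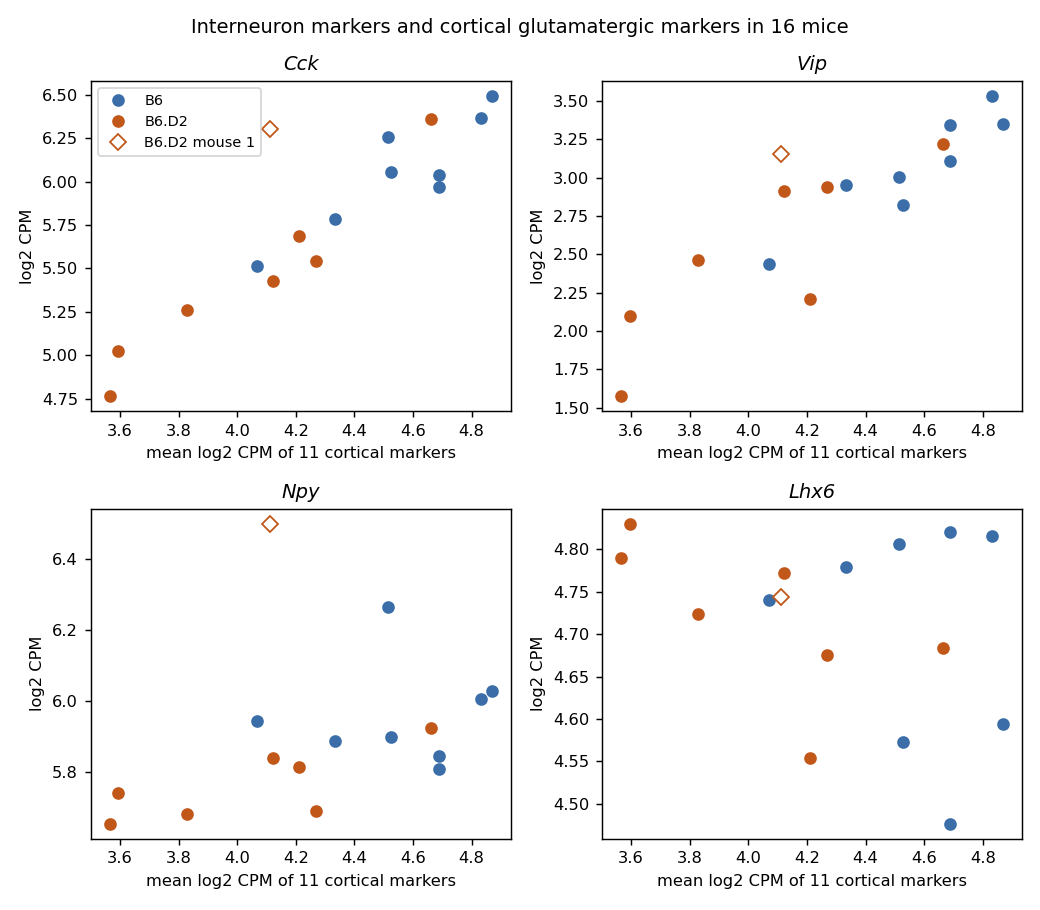
Log2 CPM of *Cck*, *Vip*, *Npy* and *Lhx6* against the mean log2 CPM of 11 cortical glutamatergic markers, 1 point per mouse, with B6 in blue and B6.D2 in orange and an open diamond for B6.D2 mouse 1. *Cck* and *Vip* rise with the cortical markers (r = 0.94 and 0.87 in 15 mice, genotype means removed), and *Lhx6* does not (r = -0.38).

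*Sst* and *Npy* mark the same striatal class, and *Sst* was the most abundant marker. *Sst*, the somatostatin gene, lies at chr16:23889573-23891342. It was measured in the B6 mice at 158.9, 180.3, 146.8, 159.2, 171.8, 164.4, 150.9 and 197.1 CPM. In B6.D2 mouse 1 it was 260.8 CPM, and in the other 7 B6.D2 mice 143.1, 129.6, 142.2, 153.3, 155.0, 155.4 and 152.6. The first of these was above every B6 mouse, 3 of the rest were below every B6 mouse, and 7 of 8 were below the B6 median. With all mice the log2 fold change was -0.04 ± 0.11 (SE, 95% interval -0.28 to 0.20, edgeR FDR = 0.919). Without B6.D2 mouse 1 it was -0.18 ± 0.06 (95% interval -0.30 to -0.05, edgeR p = 0.0071, FDR = 0.264), and the exact permutation test gave p = 0.0131. Within lanes 5 and 6 it was 0.07 with that mouse and -0.22 without it, and within lanes 7 and 8 it was -0.16.

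*Npy*, which encodes neuropeptide Y, lies at chr6:49822710-49829507. The B6 mice had 56.0, 64.2, 65.2, 59.2, 57.4, 59.6, 61.5 and 76.8 CPM, the highest in B6 mouse 8. B6.D2 mouse 1 had 90.4 CPM and the other B6.D2 mice had 60.7, 51.2, 57.2, 56.2, 51.6, 50.3 and 53.4. Below every B6 mouse were 4 of the B6.D2 mice. The log2 fold change was -0.09 ± 0.10 (SE, edgeR FDR = 0.799) with all mice and -0.20 ± 0.06 without B6.D2 mouse 1 (95% interval -0.33 to -0.08, edgeR p = 0.0034, FDR = 0.235), for which the exact permutation test gave p = 0.0065. Leaving out B6 mouse 8 as well gave -0.16 for *Npy* and -0.14 for *Sst*. *Npy* differed by 0.09 on lanes 5 and 6, or -0.12 without B6.D2 mouse 1, and by -0.28 on lanes 7 and 8. Entering the score of cortical markers and leaving out B6.D2 mouse 1 gave a log2 fold change that was -0.17 ± 0.08 for *Sst* (edgeR p = 0.0478) and -0.14 ± 0.08 for *Npy* (edgeR p = 0.0966).

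*Nos1*, the neuronal nitric oxide synthase of the same cells, lies at chr5:117866839-117958840. It was measured at 28.1, 22.5, 26.4, 26.3, 23.3, 27.0, 29.1 and 28.1 CPM in B6 mice. The 7 B6.D2 mice other than mouse 1 had 27.0, 28.5, 24.4, 26.6, 27.0, 27.8 and 24.9, all inside the B6 range, and B6.D2 mouse 1 had 1.88. With all mice the log2 fold change was -0.17 ± 0.29 (SE, 95% interval -0.78 to 0.45, edgeR FDR = 0.866). Leaving that mouse out gave 0.01 ± 0.06, with an interval from -0.11 to 0.13.

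*Pvalb*, the gene of the calcium-binding protein parvalbumin, lies at chr15:78191112-78206400. It ranged widely, at 57.3, 78.5, 31.8, 89.6, 79.3, 78.6, 71.5 and 32.6 CPM in B6 mice. The B6.D2 mice had 160.7, 40.5, 74.4, 44.9, 78.5, 94.8, 87.0 and 88.6. The 2 highest values were both from B6.D2 mice, while the lowest B6.D2 values of 40.5 and 44.9 stood above the lowest B6 values of 31.8 and 32.6. Its log2 fold change was 0.37 ± 0.26 (SE, 95% interval -0.18 to 0.91, edgeR FDR = 0.635), and 0.16 ± 0.23 without B6.D2 mouse 1. On lanes 5 and 6 the value was 0.32 with B6.D2 mouse 1 and -0.28 without it, and on lanes 7 and 8 it was 0.41.

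*Calb2*, which encodes the calcium-binding protein calretinin, lies at chr8:110142526-110168212 and was among the lowest markers. B6 mouse 1 had 23.5 CPM, and the other B6 mice had 5.5, 3.2, 6.5, 5.1, 5.6, 5.7 and 5.0. The B6.D2 mice had 6.1, 3.6, 3.9, 7.0, 3.6, 6.8, 4.9 and 8.0. Apart from B6 mouse 1 the groups covered nearly the same range. The log2 fold change was -0.47 ± 0.34 (SE, 95% interval -1.17 to 0.24, edgeR FDR = 0.643), and without B6 mouse 1 it was 0.07. The summed level of 9 hypothalamic markers was 14.4 CPM in B6 mouse 1, the highest of the 16 mice. The other mice had 6.29 to 13.8. Of these 9 markers 4, *Oxt*, *Hcrt*, *Pmch* and *Sim1*, were below the filter on low counts. The part of such tissue in the *Calb2* value was not tested.

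*Lhx6* and *Kit* varied less between mice than the median gene. *Lhx6*, at chr2:36081950-36105992, ranged from 22.2 to 28.2 CPM in B6 mice (median 27.1) and from 23.5 to 28.4 CPM in B6.D2 mice (median 26.6). The ranges nearly coincided. The log2 fold change was 0.02 ± 0.06 (SE, 95% interval -0.10 to 0.14, edgeR FDR = 0.933). *Kit* encodes the receptor for stem cell factor and lies at chr5:75574987-75656722. It ranged from 42.0 to 51.9 CPM in B6 mice (median 47.1) and from 36.5 to 50.9 CPM in B6.D2 mice (median 46.5), the lowest value being that of B6.D2 mouse 1. Its log2 fold change was -0.04 ± 0.06 (95% interval -0.17 to 0.09, edgeR FDR = 0.852), and 0.0015 ± 0.05 without that mouse. Mast cells also make *Kit*, and of 4 mast cell markers none passed the filter on low counts, with *Cma1* and *Mcpt4* at 0 reads in every library.

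**Figure D4:**
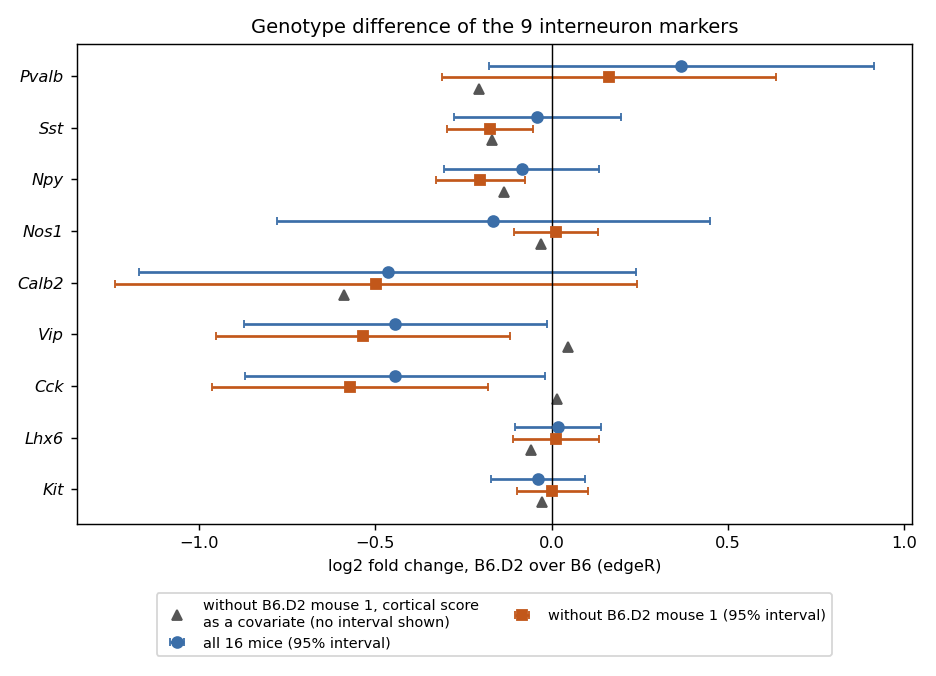
Log2 fold change (B6.D2 over B6, edgeR) of the 9 markers, with 95% intervals, for all 16 mice (circles) and without B6.D2 mouse 1 (squares), and without that mouse with the cortical score as a covariate (triangles, no interval drawn). *Sst* moves from -0.04 to -0.18 and *Npy* from -0.09 to -0.20 when that mouse is left out. *Cck* and *Vip* move to 0.01 and 0.04 with the cortical score, which itself differed with genotype.

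For no marker was the genotype difference found to change between the lane pairs. The interaction of genotype with lane pair had an FDR of at least 0.950 for all 9 in edgeR, where 0 genes passed an FDR of 5% and 293 genes, or 1.88%, passed an unadjusted p under 0.05. The likelihood ratio test also called 0. Of the markers the one with the smallest p was *Npy*, with an interaction of -0.36 ± 0.20 on the log2 scale (p = 0.0834). In edgeR without B6.D2 mouse 1 it was -0.16 for *Npy* (p = 0.207), that of *Pvalb* went from 0.10 to 0.69 (p = 0.121), and *Calb2* had the smallest p, with 1.14 (p = 0.117). The level itself was not found to differ between the lane pairs, with genotype in the model and all mice. Its FDR was at least 0.970 for all 9 markers. On lanes 7 and 8 relative to lanes 5 and 6, *Vip* was at -0.49 (edgeR p = 0.0127, FDR = 0.970) and *Cck* at -0.40 (edgeR p = 0.0443, FDR = 0.970). Among the other markers the smallest p was 0.281, for *Npy* (edgeR).

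Other genes of the same cells gave no call at an FDR of 20% with all mice. Counts at an unadjusted p under 0.05 stand against 5.14% of all genes lower and 4.86% higher. In a list of 8 or 9 genes, 1 call is thus close to the share among all genes. Among 4 genes of the *Sst*, *Npy* and *Nos1* cells, 2 were lower at an unadjusted p under 0.05 and none higher, with a median log2 fold change of -0.27. They were *Crhbp*, the binding protein of corticotropin-releasing hormone, at -0.43 ± 0.11, and *Cort*, the cortistatin gene, at -0.40 ± 0.18. *Crhbp* averaged 7.16 ± 1.13 CPM in B6 and 5.33 ± 0.870 in B6.D2 mice, and the scarcer *Cort* 1.92 ± 0.487 and 1.47 ± 0.416. *Tacr1*, the substance P receptor, had a log2 fold change of 0.08. Of 8 genes of fast-spiking cells, which share *Pvalb*, 1 was lower and none higher, with a median of 0.01. That gene was *Erbb4*, the neuregulin receptor, at -0.80 ± 0.33, whose level in B6.D2 mouse 1 was 0.627 CPM against 3.41 to 12.1 in B6 mice. Without that mouse it was -0.64, and *Syt2* was then higher at 0.28 (unadjusted p under 0.05). *Nefh*, a neurofilament gene, had a log2 fold change of 0.29 ± 0.14.

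Of 13 interneuron transcription factors, 1 was lower and 2 were higher at an unadjusted p under 0.05, beside 5.14% and 4.86% of all genes. Their median log2 fold change was 0.07. *Satb1*, a chromatin organizer of *Sst* and *Pvalb* interneurons that cortical neurons also express, was at -0.30 ± 0.09. *Nkx2-1*, which acts upstream of *Lhx6*, was higher at 0.32 ± 0.12, and *Dlx6* was higher at 0.14 ± 0.06. *Nkx2-1* is also made by cholinergic interneurons, and 4 of 5 markers of those cells were higher at an unadjusted p under 0.05, or 3 of 5 without B6.D2 mouse 1, with a summed level of 82.6 to 108 CPM in B6 and 90.7 to 136 in B6.D2 mice. None of 7 genes of interneurons from the caudal ganglionic eminence, the group to which *Vip* belongs, passed, and their median was -0.08. Of those, *Reln*, *Htr3a* and *Lamp5* had log2 fold changes of -0.12, -0.21 and -0.08. All 5 genes of GABA synthesis and transport had positive fold changes with a median of 0.10, and 1 of them passed. It was *Slc32a1*, the vesicular GABA transporter, at 0.10 ± 0.05, or 0.08 without B6.D2 mouse 1 (unadjusted edgeR p = 0.0819), while *Gad1* was at 0.14 ± 0.07. Striatal projection neurons make these genes too.

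Receptors for the peptides were lower where they passed. Of 14 receptors and the *Kit* ligand gene together, 5 were lower at an unadjusted p under 0.05 and none higher, with a median log2 fold change of -0.13. The somatostatin receptors *Sstr2*, *Sstr3* and *Sstr1* had the smallest p-values, at -0.50 ± 0.11, -0.54 ± 0.14 and -0.28 ± 0.08. *Sstr2* averaged 9.46 ± 1.62 CPM in B6 and 6.69 ± 1.01 in B6.D2 mice. Of 8 peptide processing genes, 3 were lower and none higher, with a median of -0.14. *Pcsk1*, a prohormone convertase, was at -0.47 ± 0.10, with 9.88 to 12.8 CPM in B6 and 5.27 to 9.85 in B6.D2 mice. Its FDR was 0.292 with all mice and 0.117 without B6.D2 mouse 1 (edgeR). *Chgb* and *Pam*, for a granin and for the amidating enzyme, were at -0.18 ± 0.06 and -0.15 ± 0.05. Of 9 genes of nitric oxide signalling 1 was lower, the cyclic GMP-dependent kinase gene *Prkg1* at -0.30 ± 0.10, with a median of -0.09. *Gucy1a2* and *Gucy1b3*, subunits of the nitric oxide receptor, were at -0.14 and -0.10. Cortical markers were lower in the same mice, as given above, and their part in these differences was not tested.

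None of 11 projection neuron markers passed, with a median log2 fold change of 0.03, and the summed level was 5840 to 8614 CPM in B6 and 6361 to 7364 CPM in B6.D2 mice. *Ppp1r1b*, *Penk* and *Adora2a*, defining genes of these cells, were abundant in every mouse, with *Ppp1r1b* never below 1052 CPM. No marker of thalamus, hypothalamus, oligodendrocytes, microglia, endothelium or choroid plexus passed with all mice, and 1 of 5 astrocyte markers was higher, *Gjb6* at 0.20 ± 0.09, or 0.11 without B6.D2 mouse 1. Without that mouse *Gjb6* no longer passed, while the microglial gene *Csf1r* (0.16, edgeR p = 0.0174) and the endothelial gene *Flt1* (0.24, edgeR p = 0.0241) did. The 4 choroid plexus markers had a median log2 fold change of 0.21, or 0.28 without that mouse, and *Ttr*, the transthyretin gene, was at 0.51 ± 0.50. Summed over the list, the level had a median of 47.3 CPM in B6 (range 21.3 to 130) and 85.9 CPM in B6.D2 mice (range 30.6 to 170).

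How the markers varied together between mice depended on B6.D2 mouse 1. Pearson's r of log2 CPM was taken with genotype means removed, for 36 pairs, with permutation p-values from 100000 resamples adjusted over the pairs. Over 16 mice 7 pairs had an adjusted p under 0.05 by r, and 2 of those also by Spearman's rho. *Vip* and *Cck* gave r = 0.83 (adjusted permutation p = 0.0022) and rho = 0.75 (adjusted permutation p = 0.0337), and r = 0.72 without the 2 mice farthest from the median of *Vip*. *Npy* and *Cck* gave r = 0.68 (adjusted permutation p = 0.0237) and rho = 0.73 (adjusted permutation p = 0.0337). Without B6.D2 mouse 1 these were r = 0.81 (adjusted permutation p = 0.009) and r = 0.58 (adjusted permutation p = 0.170).

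The 3 genes of the *Sst*, *Npy* and *Nos1* class did not covary beyond that mouse. *Sst* and *Npy* gave r = 0.83 but rho = 0.19 in 16 mice, and r = 0.37 without it. *Sst* and *Nos1* went from -0.88 to -0.29, and *Npy* and *Nos1* from -0.83 to -0.0029. Also leaving out the 2 mice farthest from the median of the first gene gave r = -0.20, -0.51 and -0.38 for these pairs, in that order. The size of r over 16 mice thus depended on B6.D2 mouse 1. *Nos1* and *Kit* gave r = 0.77 with it and 0.74 without it (adjusted permutation p = 0.0228 in 15 mice, rho = 0.70, adjusted permutation p = 0.0815), or 0.53 once the 2 mice farthest from the median of *Nos1* were also left out. *Pvalb* and *Npy*, at r = 0.06 in 16 mice, gave r = -0.74 in 15 mice (adjusted permutation p = 0.0228, rho = -0.57, adjusted permutation p = 0.207). In 15 mice 3 pairs had an adjusted p under 0.05 by r and 0 by both measures.

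**Figure D5:**
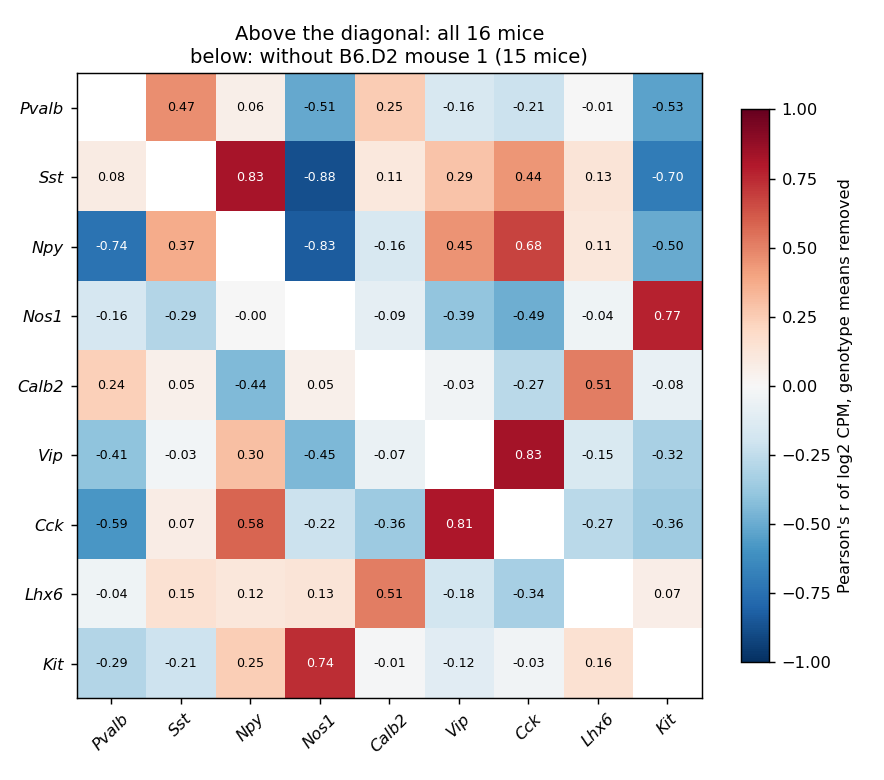
Pearson's r between the 9 markers (log2 CPM, genotype means removed), above the diagonal for all 16 mice and below it for the 15 mice without B6.D2 mouse 1. *Vip* and *Cck* keep a high r (0.83 and 0.81), whereas *Sst* and *Nos1* go from -0.88 to -0.29.

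In the 15 mice without B6.D2 mouse 1, *Pvalb* and *Npy* had opposite signs of correlation with the same tissue markers. *Npy* correlated with the mean of 3 thalamic markers at r = -0.88 and rho = -0.81 (adjusted permutation p = 0.0015 and 0.0111), and with that of 11 projection neuron markers at r = 0.77 and rho = 0.75 (adjusted permutation p = 0.0181 and 0.0301). In all 16 mice these relations were not detected, with r = -0.23 and rho = -0.39 for the thalamic and r = 0.24 and rho = 0.42 for the projection neuron markers. *Pvalb* correlated with the thalamic markers at r = 0.83 and rho = 0.68 (adjusted permutation p = 0.0052 and 0.0661) and with the projection neuron markers at r = -0.67 and rho = -0.72 (adjusted permutation p = 0.0414 and 0.0388), and in 16 mice its r was 0.83 and -0.67. Without the 2 mice farthest from the median of each list, the r of *Npy* was -0.85 and 0.49 and that of *Pvalb* 0.63 and -0.54. *Cck* correlated with 5 cholinergic markers at r = -0.75 and rho = -0.73 (adjusted permutation p = 0.0181 and 0.0339), and at r = -0.59 in 16 mice. *Calb2* gave r = 0.71 with the hypothalamic markers, which became 0.38 without the 2 mice farthest from their median. Of the 90 relations, 6 passed by both measures in 15 mice and 2 in 16 mice. The summed level of the thalamic markers was 24.2 to 43.2 CPM in B6 and 31.4 to 45.2 in B6.D2 mice.

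The genes whose levels followed each marker most closely, with genotype means removed, are given as a description. In the 16 mice they were *Vamp1*, *Ramp3* and *Spp1* for *Pvalb* (r = 0.96, 0.96 and 0.95), *E130012A19Rik*, *Fhl2* and *Twf2* for *Cck* (r = 0.96, 0.96 and 0.92), and *Slc30a3*, *Dtl* and *Bhlhe22* for *Vip* (r = 0.93, 0.90 and 0.90). For *Calb2* they were *Magel2*, *Tmem130* and *Arhgap36* (r = 0.86 each). For *Lhx6* they were *Tacr3*, *Panx1* and *Npy2r* (r = 0.78, 0.77 and 0.76), the lowest of the 9 sets. *Kit* was followed by *Fbxo32*, *Pik3cb* and *Dixdc1* (r = 0.92, 0.91 and 0.90). The nearest genes of *Sst* (*Eif3g*, *Rpp25* and *Dad1*), *Npy* (*Mlf2*, *Mrpl30* and *Eif5a*) and *Nos1* (*Fan1*, *Tsc1* and *Abhd2*) all had r of at least 0.95, and for these 3 markers B6.D2 mouse 1 was the extreme point. Without that mouse the nearest gene was *Esrrg* for *Pvalb* (r = 0.99), *Neurod2* for *Cck* (0.97), *Itpka* for *Npy* (0.96), *Hap1* for *Calb2* (0.95), *Slc30a3* for *Vip* (0.94), *Zc3h6* for *Nos1* (0.92), *Ap3s2* for *Sst* (0.86), *Sp2* for *Kit* (0.85) and *Gpr149* for *Lhx6* (0.84). Over 15 or 16 mice and 15589 genes, high values of r arise for every marker.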

How the data were processed

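Striatal RNA of 16 mice was sequenced by the authors as stranded, oligo-dT selected libraries, each on a pair of lanes. Per the labels and the methods, alignment to mm10 used TopHat with bowtie2 2.2.2, and HTSeq 0.6.1p1 counted reads per gene in union mode. The deposited values are raw counts per gene, mouse and lane, made by the authors without normalization and without the strand, and they leave out reads that aligned more than once. The kit marks strand, but counting ignored it. No exon of the 9 genes overlapped another gene in the annotation used for exon length (GENCODE M1 on mm9, matched by symbol, with no coordinates taken from it). Positions and promoters are from RefSeq on GRCm38.p6. The labels and the methods differ in punch diameter, age and RNA kit.

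Counts of 31 lane files were summed per mouse, and 5 rows that name no gene were left out of library sizes. Lane files of 15 mice differed by about counting error (chi-square per degree of freedom 0.997 to 1.05). For B6 mouse 7, 1 lane was analysed here. Groups came from the genotype in the labels. Whether littermates shared a home cage is not in the labels, nor is sex, so neither was entered, whereas the authors' own model had home cage. The methods of the study give the same numbers of females and males for both genotypes, but not the sex of each mouse. The authors' table of fold changes and p-values was not used.

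After filterByExpr and TMM scaling, edgeR's quasi-likelihood test was run (version 4.0.16, R 4.3.3), adjusting p by Benjamini-Hochberg over 15589 genes. SE is the size of the log2 fold change divided by the square root of F. Log2 CPM had a prior count of 0.5. Exact permutation tests over mice (scipy 1.17.1) were two-sided and unadjusted. In simulated data for this comparison (15527 genes), 80.6% of genes changed by 0.585 on the log2 scale were called at an FDR of 5%. The share was 28.8% at 0.3 and 92.4% at 1, with 7 false calls. Changed genes were drawn at random, and counts had no variation shared between genes. The biological coefficient of variation was 11.1% for the median gene but 28.1% for *Cck* and *Vip*. These shares therefore do not hold for markers with so wide a spread.

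The 9 genes and the gene lists were chosen with earlier results of these data known. The genes named were the 9, the up to 3 of each list with the smallest p plus any at an FDR of 20%, and the 3 genes nearest to each of the 9. Some genes that this rule names are not reported here and remain in the counts. *Tnip1*, *Slc17a7*, *Neurod1* and genes given for their absence were named after their values were seen. The score of cortical markers averaged the standardized log2 CPM of that list. Alternatives were RLE scaling, other filters, DESeq2 1.42.0, the likelihood ratio test, the second lane alone, lane pair as a covariate or taken separately, replicate number as a block, the cortical score and leaving out each mouse. Those that leave out B6.D2 mouse 1 jointly with another change were chosen after seeing the data.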

Additional observations from a re-analysis of the deposited data

Results flagged for a closer look

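In 24 groups of 8 mice (the 9 markers and 3 library measures in each genotype), 10 had a value far from the other 7 by Dixon's test at the 95% level, of which chance gives about 1 in 20. B6.D2 mouse 1 gave 6 of these. It was highest for *Pvalb* (160.7 CPM, next 94.8), *Sst* (260.8 CPM, next 155.4) and *Npy* (90.4 CPM, next 60.7) and lowest for *Nos1* (1.88 CPM, next 24.4). In the same library 27.3% of reads aligned more than once (next 21.1%) and 10.2% fell outside genes (next 14.5%). B6 mouse 8 was highest for *Npy* (76.8 CPM, next 65.2), with 11.3% of reads outside genes (next 14.8%) and 68.3% on genes (next 64.4%). B6 mouse 1 was highest for *Calb2* (23.5 CPM, next 6.52).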

How the results depend on the processing

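The number of genes at an FDR of 5%, 1 with all mice, was 25 by DESeq2, 20 by the likelihood ratio test, 2 with lane pair as a covariate, 0 in either lane pair alone, 0 with the replicate block, 0 with the cortical score (also without B6.D2 mouse 1), 7 without B6.D2 mouse 1 and B6 mouse 8, and 2 on lanes 5 and 6 without B6.D2 mouse 1. Leaving out single mice gave 1 to 4. The number of markers at an unadjusted p under 0.05, 2 with all mice, against 1559 genes in all, was 1 by DESeq2 (of 1613 genes) and on the second lane alone (1382), 0 on lanes 5 and 6 (500), 3 on lanes 7 and 8 (1407), 0 with the cortical score (335), 1 with that score without B6.D2 mouse 1 (471), 4 without the 2 libraries (1990), 1 on lanes 5 and 6 without B6.D2 mouse 1 (734), and 0 to 4 without single mice (1107 to 2087). No alternative brought a marker to an FDR of 5%. Numbers of mice shared between the genotypes did not pair them: of 8 same-numbered pairs, 3 had a correlation of deviations over 0.1 (range -0.1154 to 0.3642), and 2 B6 mice correlated best with their own number.

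Log2 fold changes turned sign as follows, and the cause was not tested. On lanes 5 and 6 *Sst* was 0.070, *Npy* 0.089 and *Lhx6* -0.023, and on lanes 7 and 8 *Calb2* was 0.12. With the cortical score *Npy* was 0.0020, *Vip* 0.15, *Cck* 0.17 and *Lhx6* -0.049. With that score and without B6.D2 mouse 1, *Pvalb* was -0.21, *Vip* 0.045, *Cck* 0.014 and *Lhx6* -0.059. Without both libraries *Nos1* was 0.026 and *Kit* 0.022. On lanes 5 and 6 without B6.D2 mouse 1, *Pvalb* was -0.28, *Nos1* 0.044, *Lhx6* -0.030 and *Kit* 0.048. Over single mice left out, the ranges were -0.58 to 0.069 for *Calb2*, -0.013 to 0.037 for *Lhx6*, -0.21 to 0.013 for *Nos1* and -0.062 to 0.0015 for *Kit*. The interaction for *Kit* was -0.00019 and, by the likelihood ratio test, 0.00020. Without B6.D2 mouse 1 the correlation was 0.37 for *Sst* and *Npy*, -0.29 for *Sst* and *Nos1*, -0.21 for *Sst* and *Kit*, -0.0029 for *Npy* and *Nos1*, 0.58 for *Npy* and *Cck*, and -0.74 for *Pvalb* and *Npy*. RLE scaling and other filters turned no sign. The lowest counts in a mouse were 60 reads for *Nos1*, 85 for *Vip* and 90 for *Calb2*.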
